A study of Mus musculus with 6 samples.

Results

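Genes for the proteins of the mitochondrial ribosome were compared between PICs and satellite cells, with 76 genes out of 18193 that had a probe set of their own on the array. The members are all genes whose platform symbol is Mrpl or Mrps followed by a number and at most 1 letter, taken from probe sets that name no other gene. They fall into 47 genes named for the large subunit and 29 named for the small subunit, measured by 156 probe sets among 45037. For each gene the probe set with the highest mean over the 6 arrays was used. PICs are interstitial cells of muscle, known in the field for expressing PW1 (encoded by Peg3). Satellite cells are the stem cells that lie on the muscle fibre. The strain was C57 black 6, the mice were 7 to 9 days old, and hindlimb muscle was digested and sorted by CD34 and Sca1. There are 3 arrays of PICs and 3 of satellite cells, labelled as biological replicates, and p-values measure the spread between them. No treatment or genetic change is named in the labels for either population, and how many animals went into an array is not given in the sources used here. The question the design poses is how expression differs between these populations at 1 week of age.

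The mitochondrial ribosome translates the few messenger RNAs encoded by mitochondrial DNA, which specify core subunits of the respiratory chain and of ATP synthase. All of its proteins are encoded in the nucleus and imported, and many have counterparts in bacteria while others were gained by mitochondria. The large subunit joins amino acids into peptides and is attached to the inner membrane, and the small subunit binds the messenger RNA and decodes it. Skeletal muscle is rich in mitochondria, and muscle cells make more of them as they mature.

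Promoter sequence is shown for 5 members, all of which carry a searched motif, because members differ in the motifs they carry. Of the 76 members 46 were lower in PICs. Each line gives the 150 bases before the annotated start of the gene, from RefSeq (GRCm38.p6), 5′ to 3′ on the gene's strand, with matches to the searched motifs in capitals. Mrps22, the member with the largest difference, and Mrpl3 carry the ETS/GABP motif CCGGAAG. Mrpl32 and Mrpl9 carry the NRF1 core motif GCATGCGC, and Mrpl32 holds it at several places. Where matches on both strands overlap, the capitals run together. Mrpl17, a member that was not called, carries the NRF1 core as well. In their own 150 bases, Mrps27 carries CCGGAAG, while Mrpl12, Mrpl28, Mrpl37, Mrpl45, Mrpl47 and Mrpl1 carry none of the motifs. Those genes were also at least 2-fold lower in PICs.
Mrps22 (chr9:98601680-98601829, minus strand): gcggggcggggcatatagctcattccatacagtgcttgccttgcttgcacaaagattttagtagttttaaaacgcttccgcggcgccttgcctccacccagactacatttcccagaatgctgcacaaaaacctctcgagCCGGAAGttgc
Mrpl3 (chr9:105053118-105053267, plus strand): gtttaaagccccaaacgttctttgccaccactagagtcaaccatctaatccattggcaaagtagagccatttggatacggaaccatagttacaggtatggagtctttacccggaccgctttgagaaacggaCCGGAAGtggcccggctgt
Mrpl32 (chr13:14613038-14613187, minus strand): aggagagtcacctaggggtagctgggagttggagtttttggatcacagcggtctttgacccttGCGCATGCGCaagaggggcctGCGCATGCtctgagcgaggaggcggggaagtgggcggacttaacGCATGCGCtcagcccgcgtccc
Mrpl9 (chr3:94443186-94443335, plus strand): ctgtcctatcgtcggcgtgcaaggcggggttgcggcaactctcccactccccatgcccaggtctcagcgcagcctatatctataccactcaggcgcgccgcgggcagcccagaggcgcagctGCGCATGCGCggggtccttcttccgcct
Mrpl17 (chr7:105811088-105811237, minus strand): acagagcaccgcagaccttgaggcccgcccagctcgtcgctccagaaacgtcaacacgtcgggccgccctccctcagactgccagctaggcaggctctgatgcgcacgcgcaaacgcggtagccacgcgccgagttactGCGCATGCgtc

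Mitochondrial ribosomal protein genes were lower in PICs than in satellite cells as a group, by a modest amount. With limma over 10855 genes and Benjamini-Hochberg adjustment, 46 of the 76 members had an adjusted p under 0.05 with a lower level in PICs and 0 had one with a higher level. Over all genes tested, 28.6% were lower in PICs and 27.6% were higher at that threshold, 56.3% together. With a difference of at least 2-fold also required, 9 of the 76 members were lower in PICs and 0 were higher. Among all genes 13% were lower, a share near that of the members, and 16.7% were higher, 29.8% together. All 76 members passed the filter on low values (log2 intensity above 4 on at least 3 arrays), so none was lost to it. The fitted difference, as log2 level in PICs minus log2 level in satellite cells, was below 0 for 73 members, against 52.1% of all genes. On 53 members the 3 PIC arrays all lay below the 3 satellite arrays, against 33.2% of all genes, and on 0 members did they all lie above, against 31.3%.

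The subunits had close median log2 differences, -0.60 for the large subunit and -0.58 for the small subunit, beside -0.04 over all genes tested. In the large subunit 29 of 47 genes were lower in PICs and 18 were not called. In the small subunit 17 of 29 genes were lower and 12 were not called. The share of all genes lower in PICs was 28.6%. Differences ran between -1.32 and 0.11 in the large subunit and between -1.43 and 0.03 in the small subunit. Mrps18a and Mrps30 carry small subunit names but sit in the large subunit in structures of the mammalian ribosome. Counted there, 30 of 49 large subunit genes and 16 of 27 small subunit genes were lower in PICs, with the same medians.

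**Figure D1:**
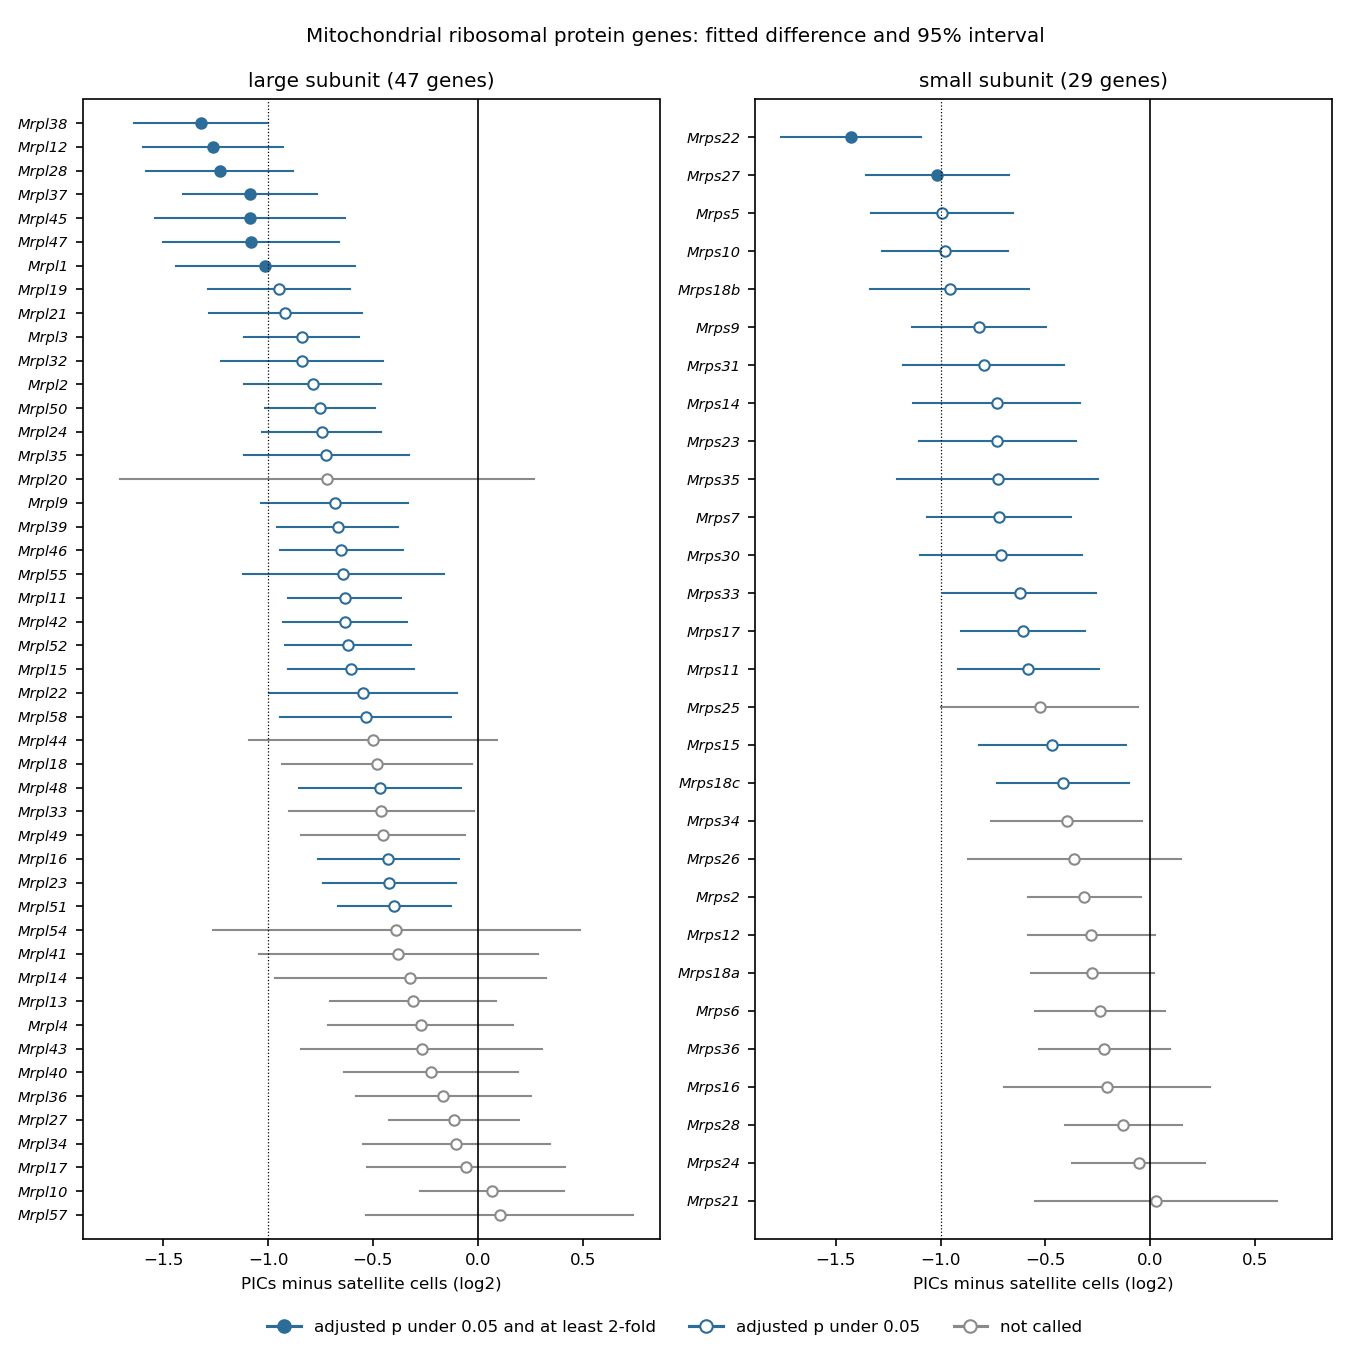
Fitted log2 difference (horizontal axis, PICs minus satellite cells) of each of the 76 genes, with its 95% interval from limma, for the large subunit (left) and the small subunit (right). Filled points are the 9 genes at least 2-fold lower in PICs at an adjusted p under 0.05, open blue points passed the adjusted p alone and grey points were not called. All but 3 points lie left of 0.

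The largest difference was that of Mrps22, a small subunit protein without a bacterial counterpart that is mutated in human mitochondrial disease. Its log2 level was 8.22, 8.61 and 8.55 in PICs and 9.89, 9.94 and 9.85 in satellite cells. The groups did not overlap, and the satellite arrays lay close together. PICs averaged 8.46 ± 0.21 and satellite cells 9.89 ± 0.05 (SD, n = 3 each), a log2 difference of -1.43 ± 0.14 (SE; limma, adjusted p = 0.00028), or 2.69-fold lower in PICs.

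Mrps27, a small subunit protein with an RNA-binding repeat fold, was the other small subunit gene at least 2-fold lower. It lay at 7.10, 7.08 and 7.43 in PICs and at 8.31, 8.25 and 8.09 in satellite cells on the log2 scale. Every PIC array was below every satellite array, with a log2 difference of -1.01 ± 0.14 (SE; limma, adjusted p = 0.00123).

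In the large subunit, Mrpl38, a protein gained by mitochondria, had log2 levels of 7.94, 8.10 and 8.32 in PICs and 9.38, 9.52 and 9.42 in satellite cells. The gap between the groups exceeded the spread within either, and the log2 difference was -1.32 ± 0.13 (SE; limma, adjusted p = 0.000329), or 2.50-fold lower in PICs. A second kept probe set of Mrpl38 read intensities of 22, 32 and 30 in PICs and 41, 49 and 60 in satellite cells, in the same direction without overlap.

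Mrpl12 is the stalk protein of the large subunit, related to bacterial L7/L12, and also binds the mitochondrial RNA polymerase Polrmt. It read 8.73, 8.65 and 8.75 in PICs and 10.15, 10.04 and 9.73 in satellite cells on the log2 scale. The PIC arrays lay within a narrow band and the third satellite array was the lowest of its group. PICs were lower by 2.40-fold (log2 difference -1.26 ± 0.14, SE; limma, adjusted p = 0.000461). Polrmt itself lay at 7.11, 6.97 and 6.93 in PICs and at 8.18, 8.13 and 7.78 in satellite cells, a log2 difference of -1.03 (limma, adjusted p = 0.00123).

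The other 5 large subunit genes at least 2-fold lower in PICs were Mrpl28, Mrpl37, Mrpl45, Mrpl47 and Mrpl1. Mrpl28, related to bacterial L28, lay at 7.62, 7.67 and 7.35 in PICs and at 8.95, 8.77 and 8.62 in satellite cells. Mrpl45, which lies at the tunnel exit where the ribosome meets the inner membrane, lay at 7.60, 7.75 and 7.33 in PICs and at 8.88, 8.73 and 8.33 in satellite cells. In both genes the groups were separate and array 3 was the lowest of each group.
Mrpl1, related to the L1 stalk protein of bacteria, lay at 7.28, 7.47 and 6.92 in PICs and at 8.38, 8.28 and 8.04 in satellite cells. Mrpl37, gained by mitochondria, ranged from 6.87 to 6.91 in PICs and from 7.77 to 8.17 in satellite cells. Mrpl47, related to bacterial L29, ranged from 6.41 to 6.77 in PICs and from 7.38 to 7.86 in satellite cells. Their log2 differences were -1.23 for Mrpl28, -1.09 for Mrpl37, -1.09 for Mrpl45, -1.08 for Mrpl47 and -1.01 for Mrpl1, with limma adjusted p from 0.000592 to 0.00317.
The number of members at least 2-fold lower was 14 without satellite replicate 3, 6 without satellite replicate 1 and 5 on the log2(value + 16) scale. Among all genes tested the numbers were 1300 of 10706, 1318 of 10701 and 1262 of 10855 in the same order.

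**Figure D2:**
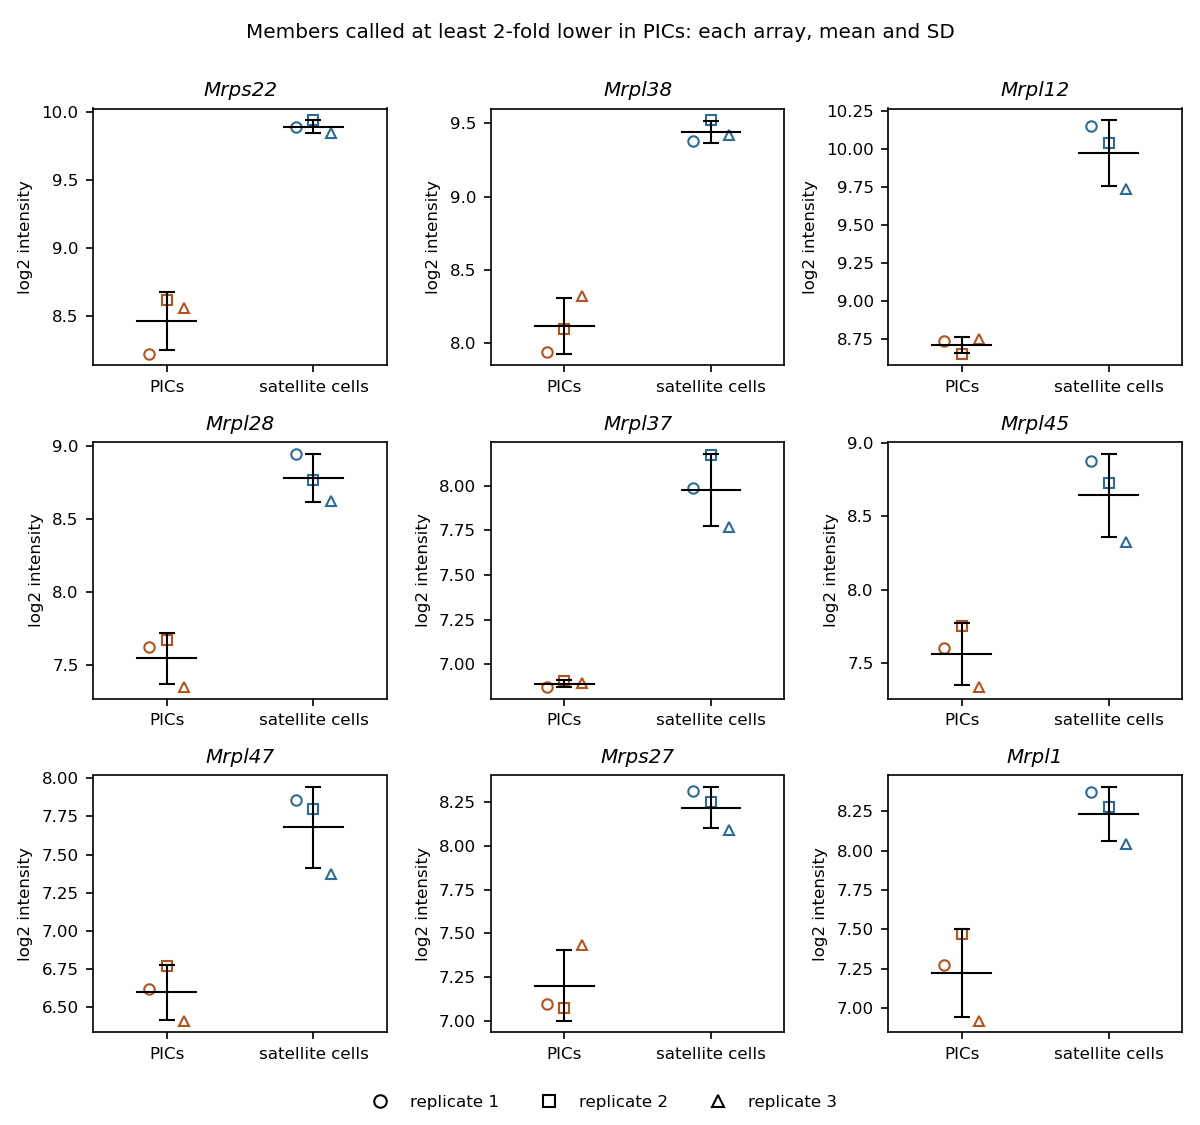
Log2 intensity (vertical axis, a separate range in each panel that does not start at 0) on each array for the 9 genes at least 2-fold lower in PICs, with the mean and SD of each population (n = 3 each) and replicate numbers as symbols. In each panel the 3 PIC arrays lie below the 3 satellite arrays.

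Further large subunit genes with an adjusted p under 0.05 lay short of 2-fold. Mrpl19, Mrpl21, Mrpl3, Mrpl32, Mrpl2, Mrpl50, Mrpl24 and Mrpl35 had log2 differences between -0.95 and -0.72, with limma adjusted p from 0.00106 to 0.00956. Without both replicate 2 arrays Mrpl32, Mrpl2, Mrpl50 and Mrpl35 were no longer called (adjusted p = 0.051 to 0.096), and Mrpl35 was not called without both replicate 1 arrays either (0.0538). Mrpl3, which lies near the peptidyl transferase centre in bacterial ribosomes, had log2 levels of 10.92, 11.03 and 11.01 in PICs and 11.82, 11.95 and 11.70 in satellite cells. Mrpl2, which is related to a bacterial protein needed for peptide bond formation, had 10.07, 10.26 and 10.49 in PICs and 11.01, 11.10 and 11.06 in satellite cells. Neither gene showed overlap between the populations, and Mrpl2 varied more among PICs than among satellite cells. Mrpl32, a protein processed by a mitochondrial protease before it joins the ribosome, had 8.37, 8.63 and 8.47 in PICs and 9.58, 9.33 and 9.07 in satellite cells.

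In the small subunit the next genes were Mrps5, Mrps10, Mrps18b, Mrps9, Mrps31, Mrps14, Mrps23 and Mrps35, with log2 differences between -0.99 and -0.73. Mrps5, whose bacterial counterpart takes part in decoding accuracy, had log2 levels of 7.63, 7.79 and 8.07 in PICs and 8.79, 8.88 and 8.79 in satellite cells. Mrps10 lay at 8.95, 9.14 and 9.21 in PICs and at 10.16, 10.14 and 9.94 in satellite cells. Both were separate between the populations, with limma adjusted p of 0.00127 for Mrps5 and 0.000844 for Mrps10. Mrps35 had an adjusted p of 0.0202, which was 0.0539 to 0.0707 without any 1 of PICs replicates 1 and 3 and satellite replicates 1 and 2. Without both replicate 2 arrays Mrps9, Mrps31, Mrps14 and Mrps23 were no longer called (adjusted p = 0.0597 to 0.118), and without both replicate 1 arrays Mrps14 (0.0677) and Mrps23 (0.0702) were not called.

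In the mouse 3 genes encode versions of the protein related to bacterial S18, of which 2 were called lower in PICs. Mrps18b lay at 8.05, 8.26 and 8.52 in PICs and at 9.37, 9.08 and 9.25 in satellite cells (log2 difference -0.96; limma, adjusted p = 0.00244). Mrps18c lay at 10.06, 10.06 and 9.91 in PICs and at 10.58, 10.45 and 10.24 in satellite cells, a difference of -0.42 (adjusted p = 0.0329, and 0.0643 to 0.0999 without any 1 array except satellite replicate 3). Mrps18a differed by -0.28 (95% interval -0.57 to 0.02; adjusted p = 0.0992) and was not called, although its PIC arrays all lay below its satellite arrays, and with array weights its adjusted p was 0.0435. Whether these differences differ from each other was not tested.

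Among members with roles outside or at the edge of the ribosome, results were mixed. Mrpl58 encodes a peptidyl-tRNA hydrolase that frees stalled ribosomes. It lay at 9.41, 9.62 and 9.36 in PICs and at 10.17, 10.15 and 9.68 in satellite cells, a log2 difference of -0.53 (limma, adjusted p = 0.0343). That call was lost without any 1 array except satellite replicate 3 (adjusted p = 0.0526 to 0.115). Mrpl41, also linked to cell death in other work, lay at 9.74, 9.65 and 9.16 in PICs and at 10.29, 10.03 and 9.37 in satellite cells. The groups overlapped (-0.38; adjusted p = 0.284), and a fit blocked by replicate number gave an adjusted p of 0.0385. Mrps36, now known as a part of the 2-oxoglutarate dehydrogenase complex and not of the ribosome, had 7.13, 7.39 and 7.39 in PICs and 7.65, 7.49 and 7.43 in satellite cells (-0.22; adjusted p = 0.194).

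The 3 members with a fitted difference above 0 were Mrpl57, Mrpl10 and Mrps21, and none was called. Mrpl10 anchors the stalk that holds Mrpl12 and lay at 8.73, 9.05 and 8.69 in PICs and at 8.74, 8.89 and 8.64 in satellite cells. The groups overlapped (log2 difference 0.07, 95% interval -0.28 to 0.41). Intervals were wider for Mrpl57, at 0.11 (-0.53 to 0.74), and Mrps21, at 0.03 (-0.55 to 0.60). Mrps24 (-0.05, interval -0.37 to 0.26) and Mrpl17 (-0.06, interval -0.53 to 0.42) were also close to 0. The sign of these 5 differences changed in at least 1 alternative each.

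Mrpl20, Mrpl44 and Mrps12 were not called with all arrays, and each was called without satellite replicate 3. Mrpl20 had log2 levels of 9.40, 9.46 and 8.41 in PICs and 10.18, 10.19 and 9.06 in satellite cells. Replicate 3 was the lowest array of each population, so the groups overlapped (difference -0.72; limma, adjusted p = 0.18), and a fit blocked by replicate number gave 0.00311. Without satellite replicate 3 the adjusted p was 0.0466. Mrpl44, a protein with a ribonuclease III fold, had intensities of 618, 649 and 641 in PICs and 1168, 1022 and 609 in satellite cells (log2 difference -0.50; adjusted p = 0.129, and 0.00458 without satellite replicate 3). Mrps12, the small subunit protein whose bacterial counterpart is the site of streptomycin resistance, differed by -0.28 (adjusted p = 0.101, and 0.0425 without satellite replicate 3). The fit blocked by replicate number called neither Mrpl44 (adjusted p = 0.104) nor Mrps12 (0.116).

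Within each replicate number most members were lower in PICs. At number 1 all 76 members were lower in the PIC array than in the satellite array, with a median log2 difference of -0.77. At number 2 there were 70 lower members with a median of -0.61, and at number 3 there were 66 with a median of -0.34. The share of all genes that were lower in PICs was 52.5%, 50.4% and 50.4% at numbers 1, 2 and 3. A total of 63 members were lower at all 3 numbers, or 82.9%, beside 41.6% of all genes.

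**Figure D3:**
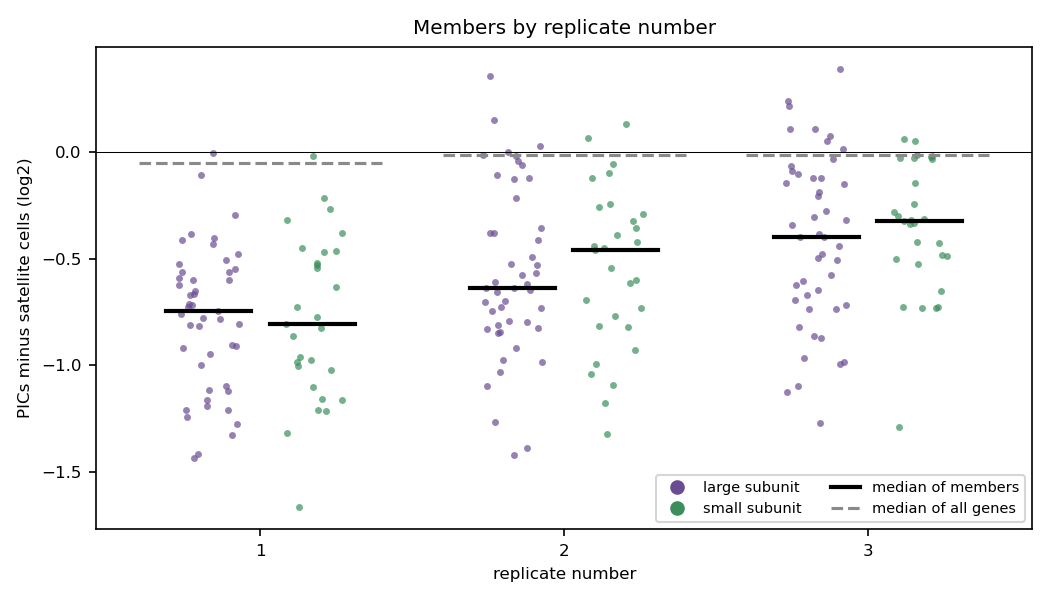
Log2 difference of each of the 76 genes between the PIC array and the satellite array that share a replicate number (vertical axis), by replicate number (horizontal axis), with large and small subunit genes apart. Black bars are member medians and dashed lines the median over all 10855 genes. Member medians lie below the dashed line at each number, and the number 3 medians, -0.40 and -0.32, are nearest to it.

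Satellite replicate 3 was the lowest satellite array for 67 of the 76 members, beside 33.1% of all genes. Satellite replicate 1 was the highest for 51, beside 33% of all genes. In PICs, replicate 1 was the lowest array for 38 members, beside 45% of all genes, and replicate 3 for 30, beside 33.7%. PIC replicate 2 was the highest PIC array for 42 members, beside 27.9% of all genes. Marker signal of other cell types differed between replicates too. Muscle fibre markers summed to 5822, 6541 and 7186 in PIC replicates 1, 2 and 3 and to 9951, 6471 and 4699 in satellite replicates 1, 2 and 3. Endothelial markers summed to 3276, 2441 and 537 in PICs and to 2239, 1404 and 1057 in satellite cells. In satellite cells both sums were highest in replicate 1 and lowest in replicate 3. In PICs the fibre sum was highest in replicate 3 and the endothelial sum in replicate 1. Whether the members follow either sum was not tested. The erythroid marker Alas2 read 393, 40 and 41 in PICs and 325, 35 and 36 in satellite cells, and leukocyte markers were likewise highest on both replicate 1 arrays. The summed intensity of 5 leukocyte markers was 1622, 145 and 56 in PIC replicates 1, 2 and 3 and 2168, 100 and 58 in satellite replicates 1, 2 and 3. Of these markers Ptprc, Cd14, Itgam and Lyz2 were at or under an intensity of 16 on at least 1 array, and Itgam read 5 on every array. Without both replicate 1 arrays, 26 members were lower in PICs at an adjusted p under 0.05 and 5 were at least 2-fold lower. The share of all genes lower at that adjusted p was 20%, and 1256 of 10389 genes were at least 2-fold lower. Without both replicate 2 arrays the member counts were 17 and 10. The share of all genes at that adjusted p was 13.2%, and 1036 of 10428 genes were at least 2-fold lower.

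Markers of the sorted cells ran with the labels, apart from Peg3. Of 5 PIC and interstitial markers on the array 4 were higher in PICs, with Peg3 not called, and all 6 satellite cell markers were lower, while Ly6a, which encodes Sca1, was not analysed here. Proliferation markers were also lower in PICs, 5 of 5 measured, at a summed intensity of 7345 to 8190 in PICs and 22634 to 28570 in satellite cells. Across satellite replicates 1, 2 and 3 their sum rose, at 22634, 28092 and 28570. Satellite replicate 3 was the lowest satellite array for 67 members. Mki67 read 2334, 1783 and 2149 in PICs and 6562, 8873 and 9819 in satellite cells. Muscle fibre markers were divided, with 3 of 9 tested lower and 4 higher in PICs, and endothelial markers were not called in either direction (0 of 5). Pericyte and smooth muscle markers summed to 7358 to 18376 in PICs and 25996 to 29254 in satellite cells, with 1 of 5 lower and 1 higher in PICs. Most of the satellite sum was Acta2, the lower one, at 6911, 3801 and 2766 in PICs and 20566, 20972 and 19289 in satellite cells. Cspg4 was higher, at 2258, 2451 and 1894 in PICs and 565, 381 and 469 in satellite cells. Schwann cell markers summed to 191 to 293 in PICs and 50 to 131 in satellite cells, and erythroid markers to 45 to 398 in PICs and 40 to 330 in satellite cells. The part of cycling, fibre or other cells in the member differences was not tested. Lower expression per cell and fewer cells of an expressing kind cannot be told apart in sorted bulk samples.

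Low family numbers are those of proteins first known from bacteria, and members were split by number as an approximate guide to bacterial counterparts. Mrpl47 is among the exceptions, since it has a high number and is related to bacterial L29. The split was made by number alone and was not checked gene by gene. In the large subunit, 16 of 27 genes numbered up to 36 were lower in PICs (median log2 difference -0.60). Of the 20 large subunit genes numbered above that, 13 were lower (median -0.58). In the small subunit, 10 of 16 genes numbered up to 21 were lower (median -0.52), as were 7 of 13 numbered above (median -0.62). These counts stand beside 28.6% of all genes lower in PICs. The 2 small subunit genes at least 2-fold lower, Mrps22 and Mrps27, are both numbered above 21.

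A second measurement of the same genes came from probe sets that were not used above. After the filter, 117 member probe sets remained, of which 112 were lower in PICs, 4 were higher and the rest were equal. Of the 41 that were not used, 39 were lower, and on 26 of them the PIC arrays all lay below the satellite arrays, against 0 where they all lay above, beside 33.2% below and 31.3% above among all genes on their used probe sets. Mrpl1 read intensities of 95, 86 and 123 in PICs and 276, 236 and 217 in satellite cells on its other kept probe set, a log2 difference of -1.27. One member, Mrpl15, had kept probe sets of opposite sign. Its probe set in use read 725, 724 and 853 in PICs and 1154, 1259 and 1082 in satellite cells, while a dim one read 19, 19 and 19 against 20, 19 and 18.

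Proteins of the mitochondrial ribosome that go by other names were tested in 4 of 5 cases, and 2 were lower in PICs, beside 28.6% of all genes. Ptcd3, a pentatricopeptide repeat protein of the small subunit, lay at 7.30, 7.36 and 7.77 in PICs and at 8.88, 9.03 and 8.97 in satellite cells. That is a log2 difference of -1.48 (limma, adjusted p = 0.000368). Dap3, a GTP-binding protein of the small subunit also known as a death-associated protein, differed by -0.10 (adjusted p = 0.505) and lay at 10.15, 10.11 and 10.32 in PICs and at 10.21, 10.34 and 10.33 in satellite cells.

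Genes that build, run and supply the mitochondrial ribosome had more members lower than higher in PICs in each list. At the same adjusted p, 28.6% of all genes tested were lower and 27.6% were higher. Among assembly and ribosomal RNA factors 13 of 27 were lower and 2 were higher (median log2 difference -0.33). Mrm3 had the largest difference of this list, at -1.93 (limma, adjusted p = 0.00765). Lrpprc, which stabilises mitochondrial messenger RNA, differed by -1.47, and Trmt10c, a subunit of mitochondrial RNase P, by -1.23. In the other direction Mrm1, a methyltransferase of the large ribosomal RNA, lay at 7.06, 6.99 and 7.18 in PICs and at 5.86, 5.29 and 5.29 in satellite cells (difference 1.60; limma, adjusted p = 0.000546). Translation factors were lower in 8 of 13 cases and higher in 0 (median -0.42). These included Tufm (-1.11) and Gfm1 (-1.10), which encode the mitochondrial elongation factors Tu and G. Of the mitochondrial aminoacyl-tRNA synthetases and related enzymes, which charge the tRNAs, 12 of 20 were lower and 0 were higher (median -0.64).

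Genes of mitochondrial DNA transcription and replication were lower in 7 of 13 cases and higher in 0 (median -0.56), beside 28.6% and 27.6% of all genes. Top1mt, the mitochondrial topoisomerase, lay at 6.15, 6.51 and 6.63 in PICs and at 9.37, 9.56 and 9.17 in satellite cells, a log2 difference of -2.94 (limma, adjusted p = 7.56e-05). Among 10 regulators of mitochondrial biogenesis 6 were lower and 0 were higher, and 9 were lower in the fit blocked by replicate number. That fit called 32.4% of all genes lower, against 28.6% without the block. Myc was among those gained (log2 difference -1.61; adjusted p = 0.0572, and 0.00106 with the block). Ppargc1b, a coactivator of respiratory genes, had log2 levels of 4, 3.32 and 3.17 in PICs, none of them above the filter's level of 4, and 7.57, 7.31 and 6.83 in satellite cells. Ppargc1b was at least 9.44-fold lower in PICs. It passed the filter only through its satellite arrays, where it was high, so its adjusted p (limma, 0.000132) is no separate support. Nrf1, the factor that binds the NRF1 motif, differed by -0.69 (adjusted p = 0.0137). Gabpa, the DNA-binding subunit of GABP, differed by -0.39 (adjusted p = 0.0255, and 0.0514 to 0.0914 without any 1 array except PICs replicate 3).

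Compared with the gene groups most like them, oxidative phosphorylation subunits had a like median. Of 71 such subunits tested 45 were lower in PICs and 0 were higher, with a median log2 difference of -0.61. The fit blocked by replicate number called 55 of these subunits lower, and 49 of the 76 members. It called 32.4% of all genes lower, against 28.6% without the block. Cyc1, cytochrome c1 of complex III, differed by -1.22. Of 44 cytosolic ribosomal protein genes 19 were lower and 2 were higher, with a median of -0.34. Without the block, 28.6% of all genes were lower and 27.6% were higher. The higher ones were Rpl39l (3.27) and Rps4l (1.77). Whether the groups differ from each other was not tested.

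**Figure D4:**
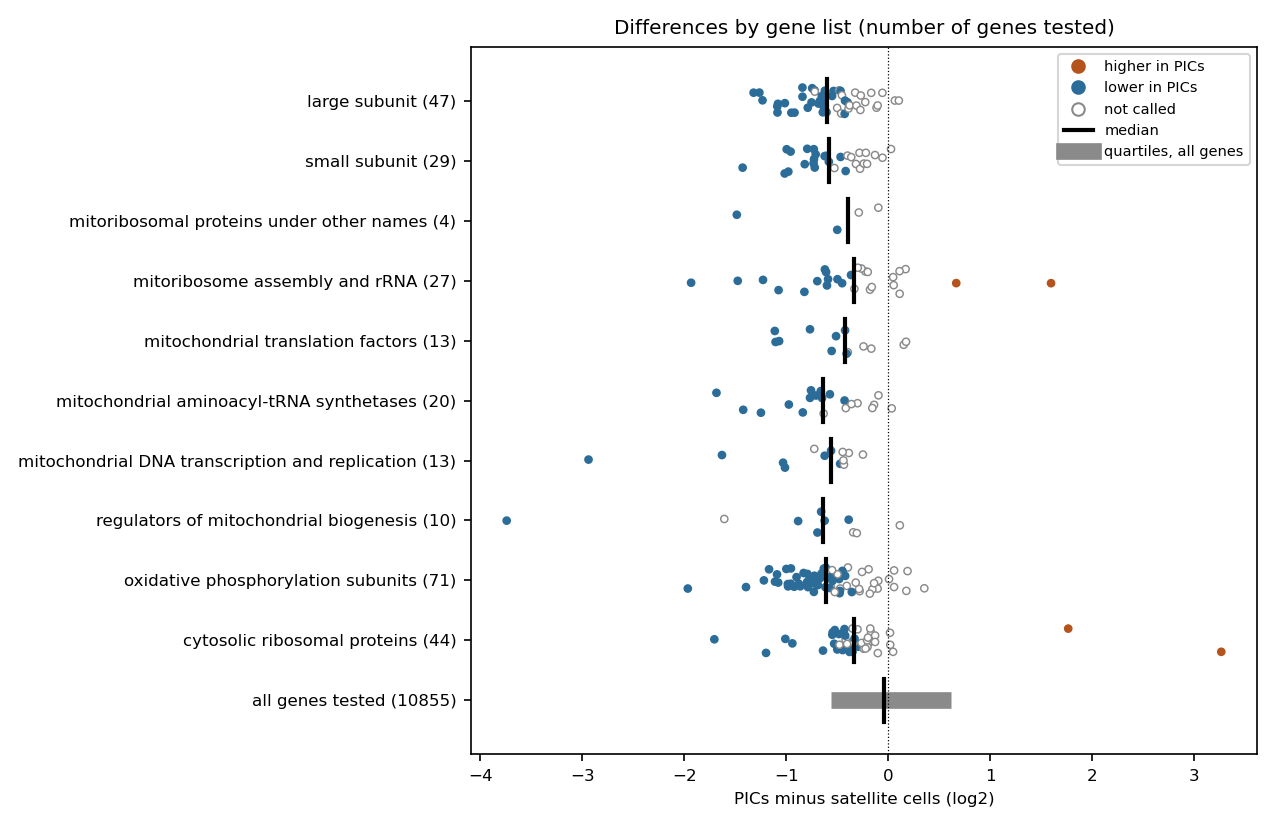
Log2 difference between PICs and satellite cells (horizontal axis) for each tested gene of the large and small mitochondrial subunits and of related lists, with the number tested in brackets. Blue points were lower and orange points higher in PICs at an adjusted p under 0.05, open points were not called, black bars are medians and the grey bar spans the quartiles of all genes. The medians of the listed groups lie between -0.64 and -0.33, left of the all-gene median of -0.04.

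Promoter windows from 250 bases before to 50 bases after the start were given for 67 of the 76 members, as 73 windows. Motifs were searched on both strands by exact letters, and a match is not a bound site. CCGGAAG, the ETS/GABP motif, was in 34.2% of member windows and 8.86% of all 32851 windows. The NRF1 core GCATGCGC was in 11% of member windows and 2.71% of all windows. The full NRF1 palindrome, which contains the core, was in 4.11% of member windows and 0.971% of all. A YY1 motif was in 6.85% of member windows and 0.852% of all. The E-box CACGTG was in 9.59% of member windows and 7.15% of all windows. Member windows were richer in G and C, at a median of 58.7% against 52.7%. By gene, CCGGAAG was in 13 of 42 members that were lower in PICs and in 12 of 25 that were not called. The NRF1 core was in 5 of 42 and 3 of 25. None of the searched motifs was in the windows of 32 of the 67 members. In the sequences printed above, the ETS/GABP match begins 11 bases before the start in Mrps22 and 19 bases before it in Mrpl3, and the NRF1 core match of Mrpl17 begins 11 bases before its start. The members lie on 17 chromosomes, with 11 members on chromosome 11, the most on any.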

How the data were processed

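Biotinylated cRNA from 200 ng of total RNA per sample was hybridised to 1-colour Affymetrix arrays, per the labels' protocols. The deposited values are linear intensities (100% whole numbers, lowest 2, median 10 on every array) made with GCRMA, which corrects background by probe sequence, quantile-normalizes and summarises probe sets, per the submitters' processing notes. Its version is not given. Between 44.7% and 45.5% of probe sets per array lay above an intensity of 16. Rounding and the GCRMA floor make low values coarse. Scan dates were not used here. The number of arrays, 3 per population, limits precision.

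Probe sets were named by the platform annotation, and symbols were updated by gene number to GRCm38.p6 RefSeq names (34741 of 34945 probe sets with 1 symbol matched). Another 4 probe sets that name an Mrp gene beside a second gene were left out. Log2 values above 4 on at least 3 of 6 arrays were kept, with 1 probe set per gene (highest mean), and tested with limma 3.58.1 in R 4.3.3 (lmFit and eBayes, two-sided, Benjamini-Hochberg over 10855 genes). A call needs an adjusted p under 0.05, and the 2-fold rule also a log2 difference of at least 1 in size. "At least" folds set the mean of the higher population against the log2 level of 4. The fit was tested on simulated data. Members, lists and tests were chosen with earlier results of these data known. Named members are the 9 at least 2-fold lower, the next 8 per subunit by size, and those with roles at the edge of the ribosome. Genes of related lists are among the 4 called genes of largest difference per direction. Mrpl57, Mrpl10, Mrps21, Mrps24, Mrpl17, Mrpl20, Mrpl15, Mrpl9, Mrps30, Mrps12, Mrpl44, Dap3, Gabpa and Myc were named after their values were seen. Naming members by level was dropped because levels of different probe sets cannot be compared. The labels call the arrays biological replicates and do not say whether equal numbers share a preparation. Deviations from the population means correlated at 0.623, 0.222 and 0.579 between arrays of equal number over the genes tested, and at -0.568 to 0.0363 otherwise. Deviations within a population cancel out for each gene, so the correlations at unequal numbers are tied to the others and are no separate contrast. Equal numbers were set side by side in the differences by replicate number because of these correlations, not because of the labels. The main fit did not use replicate numbers, so its p-values and counts ignore any pairing, and a fit blocked by replicate number is an alternative. Others changed the pseudocount, filter, normalization, probe set rule, variance model and arrays.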

Additional observations from a re-analysis of the deposited data

How the results depend on the processing

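No member was called higher in PICs under any of the 19 alternatives by either rule, and the number lower in PICs at an adjusted p under 0.05 ran from 35 to 52 when 1 array was left out, against 46 as reported. It was 49 with the replicate block, of which 43 were among the 46, 58 with array weights, 38 without a filter and 45 to 48 under the other settings. The share of all genes lower in PICs moved as well, at 38.7% with array weights and 14.6% without a filter, against 28.6% as reported. It was 32.4% with the replicate block and 20.9% to 29.3% when 1 array was left out. The 3 alternatives chosen after seeing the data left out both arrays of a number: without number 1 there were 26, without number 2 there were 17 and without number 3 there were 57. The shares of all genes lower in these were 20%, 13.2% and 29.7%. The number at least 2-fold lower was 5 with log2(value + 16), which compresses low values, 9 with the replicate block, 6 to 14 without 1 array (14 without satellite replicate 3) and 5, 10 and 12 without both arrays of numbers 1, 2 and 3. Among all genes it was 1262, 1448, 1202 to 1464, and 1256, 1036 and 1319 in the same order, against 1415 as reported. Median log2 differences kept their sign in every setting, between -0.69 and -0.51 for the large subunit and between -0.70 and -0.44 for the small subunit. All 9 members at least 2-fold lower kept an adjusted p under 0.05 in every alternative. Of 30 named members called, 14 lost the call in at least 1 alternative (Mrpl15, Mrpl2, Mrpl32, Mrpl35, Mrpl50, Mrpl58, Mrpl9, Mrps14, Mrps18c, Mrps23, Mrps30, Mrps31, Mrps35 and Mrps9). There were 5 uncalled members that changed sign. Mrpl57 ran from -0.14 to 0.32 without 1 array and was -0.0197 without number 2 and -0.0372 without number 3. Mrpl10 ran from -0.0453 to 0.13 without 1 array. Mrps21 ran from -0.15 to 0.24 without 1 array and was -0.0232 without number 2. Mrps24 ran from -0.13 to 0.0441 without 1 array and was 0.0261 without number 1 and 0.0295 with array weights. Mrpl17 ran from -0.20 to 0.10 without 1 array and was 0.0257 with array weights. The causes were not tested. No group has over 3 arrays, so single outlying arrays were not tested for.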
